A study of Mus musculus with 6 samples.

Results

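A set of 10 chemokine genes was followed in a comparison of a mouse mammary tumour line with a derivative selected for spread to the lung: the CC ligands Ccl2, Ccl5, Ccl7, Ccl8, Ccl9 and Ccl20, the CX3C ligand Cx3cl1 and the CXC ligands Cxcl10, Cxcl12 and Cxcl16. They are 10 of 18193 genes that the array annotation names by probe sets with 1 symbol. A probe set is the group of oligonucleotides that reads 1 transcript. For each gene the probe set with the highest mean over the 6 arrays was used. That mean ignores the group labels but can favour a probe set that is high in either group alone. The unselected group was parental E0771, a line of the C57BL/6 strain that the labels describe as mammary tumour. The other group was E0771-HML2, a second-generation population obtained by passing E0771 cells through the mammary fat pad of syngeneic mice and recovering them from the lung. All cells were grown in plastic dishes for 3 days in DMEM with 10% fetal bovine serum and 1% penicillin and streptomycin, without any agent added to either group, and 3 cultures of each were hybridised to Mouse Genome 430 2.0 arrays. The cultures are labelled biological replicates 1 to 3. Whether different mice lie behind the 3 HML2 cultures is not stated, and a p-value here refers to the spread among the cultures, which may be technical.

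Chemokines are small secreted proteins that bind heparan sulphate on cell surfaces and signal through receptors of the G protein-coupled family on leukocytes. The spacing of their first cysteines gives the CC, CXC and CX3C families their names. Inflammatory members such as Ccl2, Ccl5, Ccl20 and Cxcl10 are induced by cytokines through NF-kB and interferon-activated transcription factors, whereas Cxcl12 is a homeostatic ligand made by stromal cells. Cx3cl1 and Cxcl16 are made as membrane proteins with the chemokine domain on a stalk, from which ADAM10 and ADAM17 can release it. In RNA from a whole culture, more cells with a transcript and more transcript per cell cannot be told apart.

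The 250 bases before the transcription start are shown for 3 of the 10 genes, chosen because Ccl20 and Cxcl10 had high signals on the same HML2 array and Cxcl12 was near background on all 6 arrays. The sequences are RefSeq's for build GRCm38.p6, 5′ to 3′ on the strand of the gene. Capitals mark matches on either strand to 4 searched motifs: TATAAA, the NF-kB consensus, the interferon-response core (TTTC repeated after any 2 bases) and the AP-1 motif TGANTCA. Ccl20 lies at chr1:83116516-83116765 (plus strand), Cxcl10 at chr5:92348890-92349139 (minus strand) and Cxcl12 at chr6:117168285-117168534 (plus strand).
Ccl20: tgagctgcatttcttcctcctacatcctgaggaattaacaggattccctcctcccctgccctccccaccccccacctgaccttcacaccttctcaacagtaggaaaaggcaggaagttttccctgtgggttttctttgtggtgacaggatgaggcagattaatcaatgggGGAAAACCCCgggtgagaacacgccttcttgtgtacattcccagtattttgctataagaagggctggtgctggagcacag
Cxcl10: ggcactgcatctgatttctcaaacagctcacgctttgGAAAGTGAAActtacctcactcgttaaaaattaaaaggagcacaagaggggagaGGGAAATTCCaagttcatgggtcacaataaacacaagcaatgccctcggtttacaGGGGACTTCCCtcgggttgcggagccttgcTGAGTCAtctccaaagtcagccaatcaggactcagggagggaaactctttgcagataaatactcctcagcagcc
Cxcl12: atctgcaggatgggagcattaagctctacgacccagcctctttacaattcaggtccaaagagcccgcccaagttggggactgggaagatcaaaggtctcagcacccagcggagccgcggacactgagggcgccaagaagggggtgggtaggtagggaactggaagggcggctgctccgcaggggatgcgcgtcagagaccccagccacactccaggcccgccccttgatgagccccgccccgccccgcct
The stretch before Ccl20 held 1 NF-kB match, from base -80 to -71 counted from the start. The stretch before Cxcl10 held 3 NF-kB matches, of which those starting at -104 and -103 overlap by all but 1 base, with 1 interferon-response match from -213 and 1 AP-1 match from -74. None of the 4 motifs was found before Cxcl12. Upstream sequences were at hand for 6 of the 10 genes, the other three being Ccl8, with a TATAAA at -32, Cx3cl1, with a TATAAA at -6, and Ccl9, with 3 TATAAA matches, of which a pair overlap, 1 NF-kB match at -35 and 1 AP-1 match at -53. Among 32851 RefSeq stretches of the same length, 7.25% held the NF-kB consensus, 2.98% the interferon-response core, 6.75% the AP-1 motif and 12.4% TATAAA. These matches describe letters and were not tested as binding sites.

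Signals are MAS5 values that the authors had scaled to the same trimmed mean of 500 on each array, and a signal of 100 was reached by 39.7% to 41.6% of the probe sets. Of the 64 control probe sets, the 3 bacterial ones labelled Trp, which have no target in mouse RNA, read 1.97 to 36.2. These 3 are the bacterial controls used here as a gauge of background. Of the 10 genes, 7 had a mean signal of at least 100 and were tested among 9361 genes, whereas Ccl8, Ccl9 and Cxcl12 were below it. The ratio of 3′ to 5′ signals, a measure of RNA integrity, was -0.34 ± 0.04 in HML2 and -0.32 ± 0.0039 in parental cells for Gapdh on the log2 scale (SD, n = 3; exact permutation p = 0.70). For beta-actin it was 0.46 ± 0.01 and 0.55 ± 0.06 (exact permutation p = 0.10, the smallest that 3 against 3 arrays allow), and its part in the results was not tested. Of 10 markers of mammary epithelial tumour cells, 3 were tested. The keratin gene Krt8 rose by 1.87 (1034 to 1154 in parental and 3592 to 4875 in HML2 cells; adjusted p = 8.1e-05, limma). The estrogen receptor gene Esr1 fell by 0.91 (292 to 391 in parental and 147 to 179 in HML2 cells; adjusted p = 0.0056, limma), and Epcam read 68.9 to 157 and did not pass (-0.45, adjusted p = 0.12, limma). Of the untested 7, Krt18 read 25.4 to 41.1 in parental and 59.7 to 100.5 in HML2 cells, and Cdh1, Cldn3, Cldn4, Cldn7, Krt19 and Gata3 stayed at or below 45.1.

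Of the 7 tested chemokine genes, Ccl2 and Ccl20 were higher in HML2 cells and 0 were lower (limma, Benjamini-Hochberg adjusted p below 0.05 over all tested genes). Those 2 genes are 28.6% of the 7, and 12.3% of all tested genes were called higher and 14.9% lower. Ccl20 passed the filter through its HML2 signals alone, so these shares and the median over the 7 are a description. Without a filter, where 5.07% of genes were called higher and 6.82% lower, both were again called (adjusted p = 0.023 for Ccl2 and 0.0067 for Ccl20, limma). The median log2 difference, HML2 minus parental, was 1.32 over the 7 genes and -0.02 over all tested genes. Same-numbered arrays deviated together from their group means, most for number 1 (correlation 0.45 over genes). HML2 replicate 3 went as much with parental replicate 2 (0.24) as with parental replicate 3 (0.24). With the replicate number as a block 5 of the 7 were higher (71.4%), where 17.8% of all tested genes were called higher and 19.6% lower. The added genes were Ccl5, Ccl7 and Cxcl10.

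**Figure D1:**
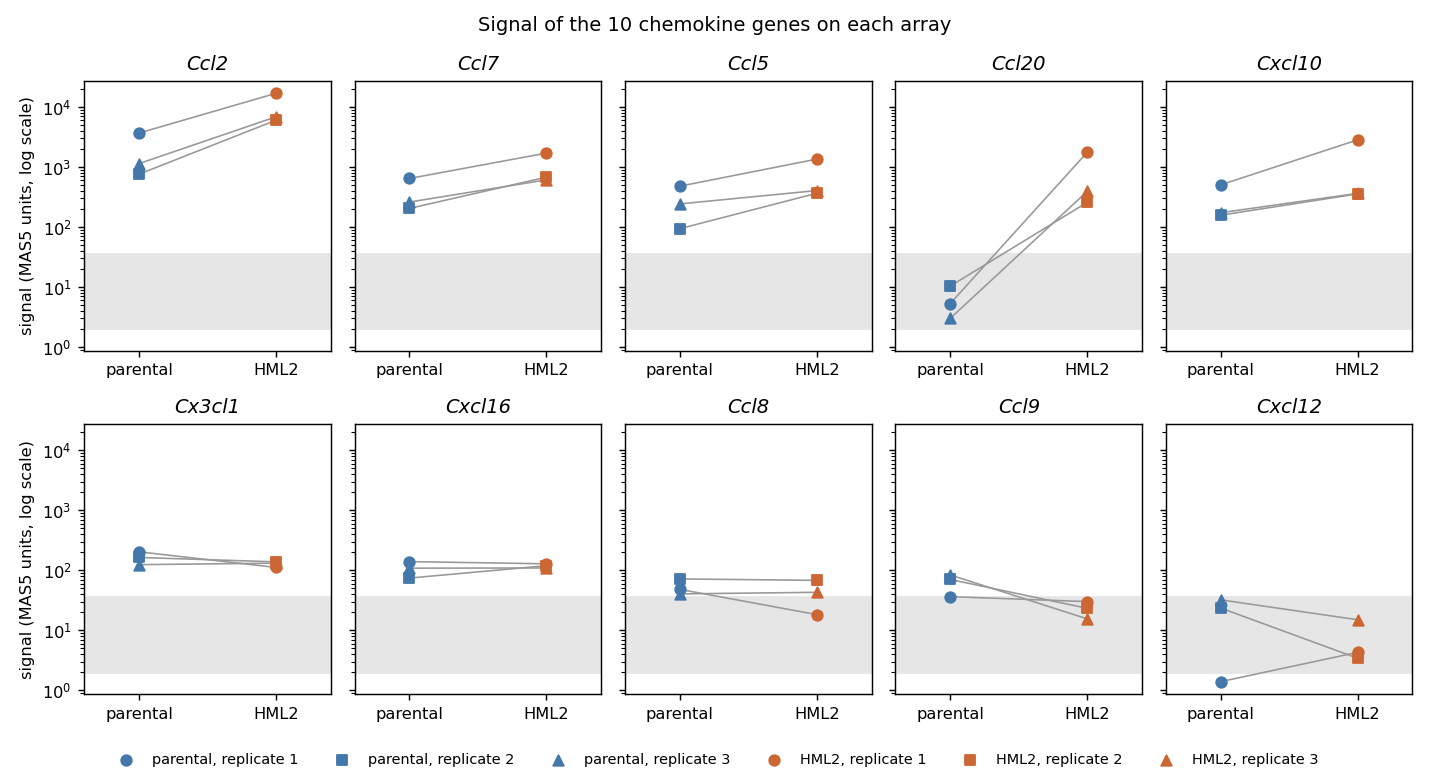
MAS5 signal (log axis) of each of the 10 chemokine genes on the 3 parental (blue) and 3 HML2 (orange) arrays, with a line joining the arrays that share a replicate number and a grey band for the range of the bacterial controls. For Ccl2, Ccl7, Ccl5 and Cxcl10 replicate 1 is the highest array in both groups, all parental Ccl20 signals lie inside the band, and levels of different genes cannot be compared because each probe set binds differently.

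Ccl2, Ccl7 and Ccl8 belong to the monocyte chemoattractant family and lie close together on 1 chromosome. Ccl2, the main ligand of the monocyte receptor CCR2, had signals of 3689, 761 and 1142 on parental arrays 1, 2 and 3 and of 16983, 6046 and 6893 on HML2 arrays 1, 2 and 3. All HML2 signals lay above all parental signals, as they did for Ccl20 and for 20.6% of all tested genes, and replicate 1 was the highest array of each group. The log2 difference was 2.55 ± 0.56 (SE; adjusted p = 0.011, limma), and the means were 1864 ± 1592 and 9974 ± 6085 (SD, n = 3). Between same-numbered arrays it was 2.19, 2.91 and 2.54 for numbers 1, 2 and 3, and 31.4% of all tested genes were higher in HML2 cells in all 3 such pairs. With the number as a block the SE was 0.14 and the adjusted p was 3.3e-05 (limma). Leaving out 1 array gave values from 2.08 without HML2 replicate 1 to 3.19 without parental replicate 1. The call was lost without parental replicate 3, at a difference of 2.36 (adjusted p = 0.055).

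Ccl7, a further ligand of CCR2, had signals of 646, 205 and 261 on the parental arrays and of 1711, 679 and 613 on the HML2 arrays. The groups overlapped, since parental replicate 1 exceeded HML2 replicate 3. The difference of 1.32 ± 0.45 did not pass the test (adjusted p = 0.060, limma; 95% interval 0.29 to 2.34), and it passed with the block (adjusted p = 5.2e-04). The differences between same-numbered arrays were 1.34, 1.52 and 1.09, all positive. Ccl7 also passed with median centring (adjusted p = 0.045), quantile normalization (0.047), array weights (0.00205) and without parental replicate 1 (0.024; difference 1.75), with limma throughout. It was not called when any other single array was left out: the difference was 0.87 without HML2 replicate 1 (adjusted p = 0.085), and the adjusted p was 0.185 without parental replicate 2 and 0.185 without parental replicate 3. Ccl8, the last of the family here, read 48.0, 71.7 and 40.3 on the parental arrays and 18.2, 67.8 and 42.9 on the HML2 arrays. Its groups overlapped near background and it was not tested.

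Ccl5 and Ccl9 lie in another cluster of CC genes on the same chromosome. Ccl5 attracts T cells and monocytes. Its signals were 480.4, 93.9 and 243 on the parental arrays and 1357, 367 and 406 on the HML2 arrays. Parental replicate 1 lay above HML2 replicates 2 and 3, so the groups overlapped. The difference was 1.19 ± 0.55 (adjusted p = 0.15, limma; 95% interval -0.07 to 2.45) and it was called with the block (adjusted p = 0.0031). By number it was 1.41, 1.53 and 0.64. Without HML2 replicate 1 it was 0.63, and without parental replicate 2 it was 0.71, neither called. Ccl9, a ligand of the myeloid receptor CCR1, had signals of 36.3, 70.2 and 83.5 on the parental and 30.0, 23.2 and 15.5 on the HML2 arrays. Every HML2 signal lay below every parental signal, as for 23.8% of all tested genes, and within the range of the bacterial controls. Ccl9 was below the signal filter, and without a filter its difference of -0.62 ± 0.21 was not called (adjusted p = 0.10, limma). The other probe set of Ccl9 was dimmer, with a difference of -0.33.

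Ccl20, the ligand of CCR6 on dendritic cells, B cells and a subset of helper T cells, had signals of 5.31, 10.4 and 3.01 on the parental arrays and of 1765, 259 and 394 on the HML2 arrays. The gene read background in parental cells and was well above it on each HML2 array, with replicate 1 above the other HML2 arrays by 4.48-fold or more. The log2 difference was 3.48 ± 0.56 (adjusted p = 0.0030, limma). That value depends on the offset of 50 added before the logarithm, because the parental signals are so low: it was 4.73 with an offset of 16 and 2.70 with 100, called in each case. Without HML2 replicate 1 it was 2.72 (adjusted p = 8.4e-05, limma). In contrast to Ccl2, Ccl5, Ccl7 and Cxcl10, Ccl20 was at background on all parental arrays, and on parental replicate 1 its value minus the mean of the remaining parental arrays was -0.03.

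Cxcl10 attracts activated T cells and NK cells through CXCR3 and is a classical interferon-induced gene. Its signals were 504.7, 158 and 173 on the parental arrays and 2845, 357 and 364 on the HML2 arrays. HML2 replicate 1 was 7.81-fold above the next HML2 array, and parental replicate 1 was above HML2 replicates 2 and 3. The difference was 1.42 ± 0.73 (adjusted p = 0.18, limma; 95% interval -0.24 to 3.07), and with the block it was called (adjusted p = 0.0066). It was 2.38 for number 1, 0.97 for number 2 and 0.89 for number 3. Without HML2 replicate 1 it was 0.48, the largest change that leaving out an array made to this gene. The related ligands Cxcl9 and Cxcl11, which share CXCR3, were below the filter, and their highest signals were also on HML2 replicate 1, at 93.4 for Cxcl9 and 76.2 for Cxcl11.

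The membrane-bound ligands did not pass the test. Cx3cl1, which binds CX3CR1 on monocytes and NK cells, read 203, 163 and 124 on the parental arrays and 111, 138 and 131 on the HML2 arrays. The groups overlapped, and the difference was -0.26 ± 0.20 (adjusted p = 0.37, limma; 95% interval -0.71 to 0.19). The 3 other probe sets of Cx3cl1 had differences of 0.02, 0.02 and -0.11 at mean signals of 71.7 or less. Cxcl16, the ligand of CXCR6, read 139, 74.1 and 108 on the parental arrays and 128, 119 and 109 on the HML2 arrays. Its difference was 0.12 ± 0.21 (adjusted p = 0.70, limma; 95% interval -0.35 to 0.60). Its other probe set was dim but separated the groups, with 2.03 to 12.2 on parental and 33.8 to 50.1 on HML2 arrays, so the probe sets of this gene disagree. With the mean of all probe sets the difference of Cxcl16 was 0.43 (adjusted p = 0.0555, limma). Cxcl12, the ligand of CXCR4, had signals of 1.39 to 32.1 on its brightest probe set, all within or below the range of the bacterial controls, and its other probe sets read at most 26.4.

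**Figure D2:**
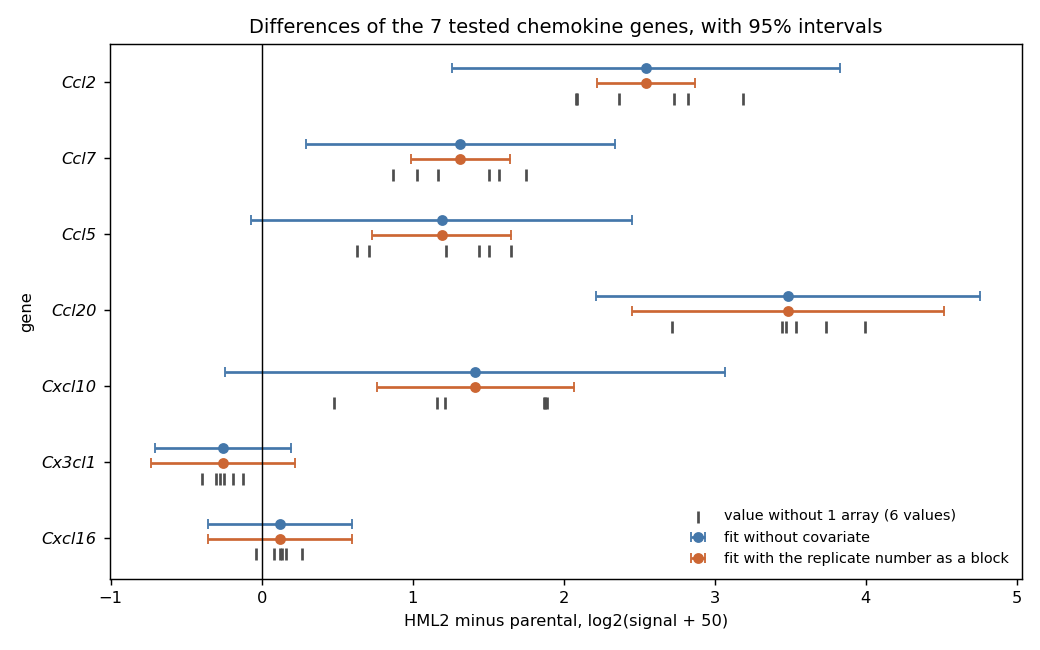
Log2 difference (HML2 minus parental, log2(signal + 50)) of the 7 tested chemokine genes with 95% intervals from the fit without covariate (blue) and from the fit with the replicate number as a block (orange), and the 6 values obtained when 1 array is left out (ticks). The block leaves the differences as they are and narrows the intervals of Ccl2, Ccl7, Ccl5, Cxcl10 and, by less, Ccl20, whereas those of Cx3cl1 and Cxcl16 span 0 in both fits.

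Replicate 1 stood apart in both groups. Of the 7 tested chemokine genes, Ccl2, Ccl5, Ccl7 and Cxcl10 were higher on it than on replicates 2 and 3 in parental and in HML2 cells, and Cxcl16 was so by small amounts, 5 genes in all, where 24.8% of all tested genes had this order. On parental replicate 1 the first 4 exceeded the mean of parental replicates 2 and 3 by 1.93 for Ccl2, 1.37 for Ccl5, 1.31 for Ccl7 and 1.37 for Cxcl10 on the log2 scale. On HML2 replicate 1 the corresponding values were 1.39, 1.69, 1.34 and 2.82, and Ccl20 exceeded the mean of HML2 replicates 2 and 3 by 2.29. The medians over all tested genes were 0.02 in parental and 0.01 in HML2 cells. Without both replicate 1 arrays, a comparison of 2 against 2 chosen after the values were seen, the differences were 2.73 for Ccl2, 1.30 for Ccl7, 1.09 for Ccl5, 0.93 for Cxcl10 and 2.71 for Ccl20, and all 5 were called by limma, where 18.1% of all tested genes were called higher and 19.7% lower. The labels do not say what replicate 1 shares across the groups.

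Of 11 markers of leukocytes, which make and respond to these ligands, 8 were below the signal filter. Only 3 stayed below the highest bacterial control signal on every array. They were the pan-leukocyte gene Ptprc (at most 19.8), the T cell gene Cd3e (at most 24.9) and Itgam (at most 26.9). Also below the filter, Cd74 read 50.7 to 107, Adgre1 22.3 to 64.5, Fcer1g 33.7 to 56.9 and Tyrobp 3.76 to 54.4. The sum over the 11 leukocyte markers on the array was 824 to 947 in parental and 1590 to 1798 in HML2 cells. Laptm5, which rose by 1.80, held most of the HML2 sum, with 1078 to 1310, Lyz2 fell by 0.91, and Csf1r (-0.23) did not pass (adjusted p = 0.55, limma). The macrophage gene Cd68 read 216 on HML2 replicate 1 and 47.6 to 75.2 on the other arrays, and its part in the signals of that array was not tested. None of the 8 endothelial markers and 1 of the 8 lung epithelial markers, Sftpb (0.34, adjusted p = 0.26, limma), reached the filter. Of 10 fibroblast markers, Col3a1 fell by 5.18 and Pdgfra by 1.09, and Pdgfrb (-1.18, adjusted p = 0.053, limma) was called lower with the block. Col1a1, below the filter, read 65.1 to 78.4 in parental and 9.83 to 33.8 in HML2 cells. Without a filter it was called lower (-0.80, adjusted p = 0.028, limma). Col1a2 (52.9 to 138; -0.43) and Pdpn (25.3 to 90.7; 0.41) were not called without a filter. Dcn, Lum, Fap and Thy1 read at most 62.4. The summed fibroblast markers were 24028 to 29743 in parental and 1659 to 2931 in HML2 cells, and Col3a1 made up 20547 to 25093 of the parental and 363 to 785 of the HML2 sums, so that the gap is mostly that of 1 gene.

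Receptors for these ligands were low in both populations. Of 16 chemokine receptor genes represented, 0 reached a mean signal of 100, so none was tested. Ccr1 read 8.76 to 52.0, Ccr2 12.6 to 74.6, Ccr3 at most 6.92, Ccr6 at most 39.2, Cx3cr1 at most 62.1, Cxcr4 at most 23.0 and Cxcr6 at most 65.6. Cxcr3, the receptor of Cxcl10, read 36.5 to 130, and its groups overlapped. Among the atypical receptors, which take up chemokines without G protein signalling, Ackr3, which binds Cxcl12, read 1140 to 1403 in parental and 1210 to 1395 in HML2 cells (difference 0.08, adjusted p = 0.72, limma). Ackr4 had a difference of -0.35 (adjusted p = 0.14, limma). Ackr1 (39.3 to 85.9) and Ackr2 (1.26 to 56.0), which bind inflammatory chemokines, were below the filter.

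The other chemokine ligands gave 3 higher and 0 lower of 5 tested, where 12.3% of all tested genes were called higher and 14.9% lower. Their median was 2.58 against -0.02 over all tested genes. Higher were the neutrophil-attracting Cxcl1 (5.02), Cxcl2 (3.88) and Cxcl3 (2.58), while Ccl4 (0.30) and Ccl25 (-0.07) did not pass. Cxcl2, at 17.9 to 36.0 on the parental arrays, passed the filter through its HML2 signals alone. The counts and the median are therefore a description. A further 19 of the 24 on the array were below the filter. One of them, Cxcl5, named after its value was seen, read 1.26 to 8.13 on the parental and 40.3 to 54.4 on the HML2 arrays and was called higher without a filter (0.84, adjusted p = 0.0071, limma).

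Of 8 tested proteases that process chemokines, 1 was higher and 2 were lower, with a median of 0.03, and counts this small do not stand apart from the 12.3% and 14.9% over all tested genes. Adam10, which sheds Cx3cl1 and Cxcl16 from the membrane, went from 5786 to 6842 in parental cells to 3001 to 3247 in HML2 cells, a difference of -1.01 ± 0.11 (adjusted p = 5.2e-04, limma), whereas Adam17 did not pass (0.15, adjusted p = 0.43). The gelatinase genes Mmp2, whose product trims Ccl7 and Cxcl12, and Mmp9 moved apart, at -1.76 and 1.50. Dpp4, a peptidase that removes the first residues of several chemokines, had a difference of 0.01. With the block 2 proteases were higher, the cathepsin gene Ctsl (0.22) being added, where 17.8% of all tested genes were called higher. Of 8 tested genes for heparan sulphate proteoglycans and their synthesis, 5 were lower and 0 higher, with a median of -0.61. They were the chain polymerase gene Ext1 (-1.78), the syndecan gene Sdc2 (-0.97), the sulphotransferase gene Hs6st1 (-0.87), the glypican gene Gpc1 (-0.82) and Sdc1 (-0.39), named after its value was seen. The call of Sdc1 was lost without parental replicate 1, parental replicate 3 or HML2 replicate 2 (adjusted p from 0.069 to 0.13, limma).

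Receptors and adaptors that induce chemokine transcription had 2 higher and 2 lower of 16 tested, shares near the 12.3% and 14.9% over all tested genes, with a median of -0.13. Myd88, the adaptor of Toll-like and interleukin-1 receptors, and the interleukin-17 receptor gene Il17ra rose by 0.91 and 0.83. Tlr3, a sensor of double-stranded RNA, fell by 1.11 and the interleukin-1 receptor gene Il1r1 fell by 0.75, a call lost without parental replicate 3 (adjusted p = 0.051, limma). Of 11 transcription factor genes tested, Relb (1.33), Fosl1 (1.07) and Nfkb2 (1.06) were higher and 0 were lower, with a median of 0.29. With the block 5 were higher, Irf3 (0.50) and Jun (0.36) being added, where 17.8% of all tested genes were called higher. The calls of Relb and Nfkb2 were each lost without parental replicate 2 or parental replicate 3 (adjusted p from 0.060 to 0.094, limma). The interferon-pathway gene Irf9 (-0.21), named after its value was seen, did not pass. It was higher on replicate 1 of both groups, as were 24.8% of all tested genes. Irf9 read 626 against 217 and 308 in parental and 579 against 193 and 222 in HML2 cells. Of 10 tested genes of messenger RNA decay and feedback, 5 were higher and 0 lower, with a median of 0.62. Nfkbie (2.52), Nfkbiz (1.36), Tnfaip3 (1.36) and Nfkbia (1.26) restrain or modulate NF-kB, and Zfp36l1 (0.60, named after its value was seen) belongs to a family that speeds decay of AU-rich messages. The call of Zfp36l1 was lost without parental replicate 2 (adjusted p = 0.054, limma) or parental replicate 3 (0.059). Zfp36, of the same family, did not pass at 0.64 (adjusted p = 0.18, limma).

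**Figure D3:**
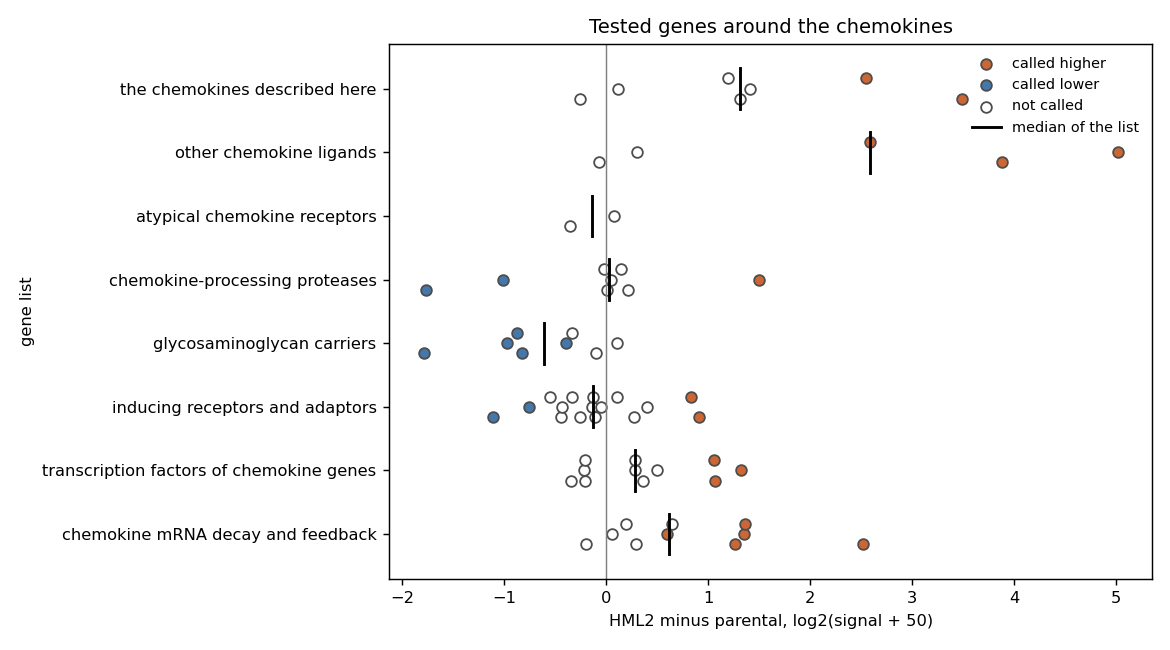
Log2 differences (HML2 minus parental) of the tested genes in each list, filled where called higher (orange) or lower (blue) and open where not called, with a black bar at each list's median. Heparan sulphate genes lie mostly below 0 (median -0.61) and the decay and feedback genes mostly above it (median 0.62).

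The tested genes whose profile over the 6 arrays came nearest to those of Ccl20 and Ccl2 were found by the root mean square difference after each gene was centred on its own mean. Nearest to Ccl20 were Cxcl2 (0.26), Galnt3 (0.49) and Saa3 (0.54), and nearest to Ccl2 were Icam1 (0.34), Cxcl3 (0.34) and Nfkbie (0.36), all in log2 units. Cxcl2 had signals of 36.0, 17.9 and 28.9 on parental arrays 1, 2 and 3 and of 3110, 578 and 696 on HML2 arrays 1, 2 and 3. Cxcl2 and Ccl20 both lay within the range of the bacterial controls on all parental arrays, where the offset of 50 sets their values on this scale, so their likeness rests on the 3 HML2 arrays. Icam1 read 260, 83.0 and 127 on the parental arrays and 1692, 698 and 666 on the HML2 arrays.

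Genes beside the chemokines on the chromosome were read as a check of position, taking the nearest 3 tested genes on each side. Of 42 such genes that are not themselves among the 10, 8 were called higher (19.0%) and 6 lower (14.3%), against 12.3% and 14.9% of all tested genes, and their median difference was 0.11. With the block 13 were higher (31.0%) and 8 lower (19.0%), against 17.8% and 19.6% of all tested genes, and these gaps were not tested. Around Ccl2 and Ccl7 the proteasome gene Psmd11 (0.53) and Zfp830 (0.45) were higher, and Cdk5r1 (0.22) and Lig3 (-0.0015) did not pass. Beside Ccl20, Agfg1 (-0.59) and Mff (-0.55) were lower. Around Cxcl10, Sdad1 (1.32), Naaa (1.07) and Nup54 (0.77) were higher, while Art3 fell by 2.11 and Scarb2 by 0.38. The remaining called neighbours were Rspry1 (-0.51) and Psme3ip1 (-0.53) beside Cx3cl1, Zfand4 (0.68) and Washc2 (0.42) beside Cxcl12 and Arrb2 (0.69) beside Cxcl16. The calls of Zfp830, Scarb2, Rspry1, Psme3ip1, Zfand4, Washc2 and Arrb2 were each lost without at least 1 of the parental arrays or HML2 replicates 2 and 3 (adjusted p from 0.051 to 0.16, limma).

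**Figure D4:**
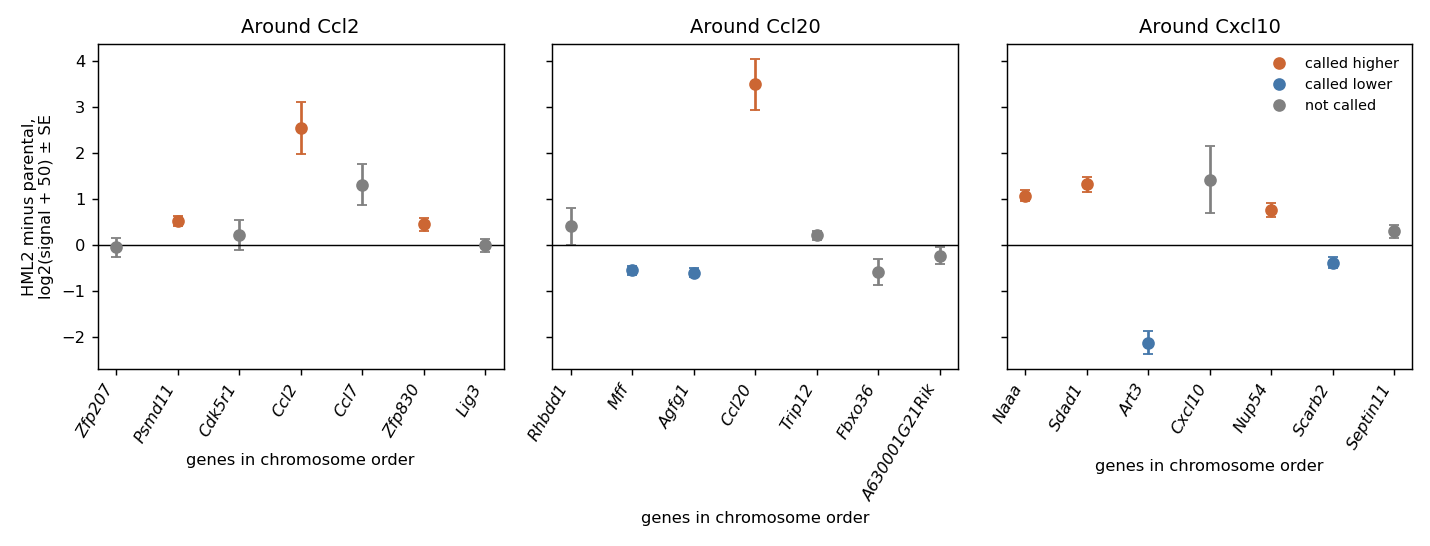
Log2 difference (HML2 minus parental) with its SE for Ccl2, Ccl20 and Cxcl10 and the nearest 3 tested genes on each side, in chromosome order and coloured by call. Ccl20, at 3.48, stands between the lower Agfg1 and Trip12, which did not pass, and Cxcl10 lies beside Art3, which fell by 2.11.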

How the data were processed

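Array values were deposited as linear signal intensities, 1 per probe set and array; per the submitters' processing notes the authors made them with MAS5, for which neither version nor settings are known here. The trimmed mean was 500 on all arrays, which removes any difference in total messenger RNA, and no detection calls came with the values. The array annotation named 34945 probe sets by 1 symbol, updated through RefSeq (GRCm38.p6), which was used otherwise for gene order and upstream sequences.

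After log2(signal + 50), a filter kept mean signals of 100 or more, each gene was read from its brightest probe set, and 9361 genes entered limma 3.58.1 under R 4.3.3 (intensity trend, no covariate, Benjamini-Hochberg adjustment). The code was tested on simulated data. Differences near background understate the change. Genes and lists were chosen with earlier results of these data known. All 10 chemokines are named, as are per list the called genes that differed most (at most 4; where fewer than 2 were called, bright ones made up the 2), the receptors of the 10 and called neighbours; other genes give context. Deviations of same-numbered arrays from their group means correlated at 0.45, 0.34 and 0.24 over genes, above the bound of 0.1, so the number was used as a block in an alternative; the labels do not name what it stands for.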

Additional observations from a re-analysis of the deposited data

How the results depend on the processing

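Precision is limited by 3 arrays a group and, for dim genes, by background. In all, 1155 genes were called higher and 1395 lower; array weights gave 2422 and 2631. Leaving out 1 array in turn gave 590 to 1577 higher and 795 to 1845 lower genes, the lowest counts without parental replicate 3. Of the tested chemokines, 2 were called higher, against 5 with array weights, 5 with the replicate block and 5 without both replicate 1 arrays, and 1 to 3 when 1 array was left out, with 1 without parental replicate 3; 0 were called lower in any of these settings. The block changed the calls of Ccl5, Ccl7 and Cxcl10 and of no other chemokine tested. With array weights the differences were 0.70 for Ccl5 and 0.85 for Cxcl10 (limma adjusted p = 0.043 and 0.038). Ccl20 was called in all 17 alternatives and Ccl2 in all but the 1 without parental replicate 3. None of the 7 chemokines reversed a call. Among the other genes given, Nfkb2 (adjusted p = 0.052), Sdc1 (0.056), Zfp830, Scarb2, Zfand4 and Arrb2 lost their calls without the signal filter. Sdc1 and Scarb2 also lost theirs with median centring (0.064 and 0.080) and without the intensity trend (0.062 and 0.059). Irf3 gained a call with median centring (0.045), and Ackr4 (0.044), Csf1r, Epcam, Pdgfrb, Jun, Cdk5r1 and Trip12 gained one with array weights. The causes were not tested.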
